A study of Homo sapiens with 29 samples.

Results

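The TGF-beta and activin signalling genes described here were 10 genes chosen by name: the TGF-beta ligands TGFB1, TGFB2 and TGFB3, the activin subunit INHBA, the activin antagonist FST, the receptors TGFBR1 and TGFBR2, the intracellular mediators SMAD3 and SMAD7, and the matrix protein TGFBI. They were 10 of 28266 genes in the count table, and all 10 were among the 13136 genes with enough reads to be tested. RNA was sequenced from IMR90 ER:RAS cells, a human lung fibroblast line that carries a retroviral fusion of the oestrogen receptor hormone-binding domain with oncogenic RAS, so that 4-hydroxytamoxifen (4OHT) activates RAS, which induces senescence. By their labels 17 of the 18 libraries, controls included, are from cells with this fusion, with RNA taken at day 7 (1 control library with little of the fusion's RNA is described below). The remaining library matches no label, and its cells and day are taken to be the same from its column name. All received an siRNA before induction. The 6 DMSO_siNT libraries were growing cells given the solvent and a non-targeting siRNA (siNT 2 or siNT 4). The 6 4OHT_siNT libraries were senescent cells with the same siRNAs. The 6 4OHT_siSMARCA4 libraries were senescent cells given 1 of 2 siRNAs (siSMARCA4_2 or siSMARCA4_4) against SMARCA4, an ATPase of the SWI/SNF chromatin remodelling complex. The design has no DMSO group with SMARCA4 knockdown among the libraries analysed, and the siRNAs were present from before senescence began. Nothing states that libraries of a group came from separate cultures, so p-values measure the spread between these libraries, which may be technical.

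TGF-beta ligands and activin A (a dimer of INHBA subunits) are secreted proteins that bring together type II and type I serine/threonine kinase receptors on the cell surface. TGFBR2 and TGFBR1 are that pair for TGF-beta. The activated type I receptor phosphorylates SMAD2 and SMAD3, which enter the nucleus with SMAD4 and regulate transcription, while SMAD7 is an induced inhibitor of the receptor. Follistatin, the product of FST, binds activin and keeps it from its receptors. In lung fibroblasts TGF-beta is best known for driving matrix production and the myofibroblast programme, and TGF-beta ligands and activin A are among the factors that senescent cells secrete.

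The 4 members that differed most between growing and senescent cells are shown first by the 250 bases before their RefSeq start site, because they moved in opposite directions and their promoters differ in composition. The sequences are from RefSeq, build GRCh38.p14, written 5′ to 3′ on the strand of the gene, and capitals mark matches, on either strand, to TGANTCA (bound by AP-1 factors), CAGACA (the SMAD box) or GGGCGG (the GC box bound by SP1). TGFB1 lies on the minus strand with its window at chr19:41353923-41354172, INHBA on the minus strand at chr7:41703091-41703340, FST on the plus strand at chr5:53480379-53480628, and TGFBI on the plus strand at chr5:136028738-136028987.
TGFB1: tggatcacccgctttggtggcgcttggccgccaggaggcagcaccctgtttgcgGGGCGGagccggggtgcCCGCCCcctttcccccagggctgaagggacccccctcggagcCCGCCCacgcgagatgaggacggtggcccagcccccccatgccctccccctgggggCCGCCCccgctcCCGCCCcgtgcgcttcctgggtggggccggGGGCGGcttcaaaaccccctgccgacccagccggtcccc
INHBA: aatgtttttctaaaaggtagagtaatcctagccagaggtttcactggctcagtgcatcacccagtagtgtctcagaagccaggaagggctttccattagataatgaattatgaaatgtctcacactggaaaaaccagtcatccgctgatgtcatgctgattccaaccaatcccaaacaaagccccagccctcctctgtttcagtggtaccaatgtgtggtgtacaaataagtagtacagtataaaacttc
FST: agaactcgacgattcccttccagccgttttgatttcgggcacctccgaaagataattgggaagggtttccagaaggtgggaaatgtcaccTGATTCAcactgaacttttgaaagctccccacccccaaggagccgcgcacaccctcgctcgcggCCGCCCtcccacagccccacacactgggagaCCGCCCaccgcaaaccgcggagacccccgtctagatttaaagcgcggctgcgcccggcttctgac
TGFBI: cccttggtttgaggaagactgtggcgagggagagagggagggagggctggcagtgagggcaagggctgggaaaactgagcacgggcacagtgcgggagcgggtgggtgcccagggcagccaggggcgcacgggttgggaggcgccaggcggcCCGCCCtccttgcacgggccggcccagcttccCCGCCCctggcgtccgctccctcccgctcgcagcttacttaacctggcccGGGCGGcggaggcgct
TGFB1 held 6 GC boxes, at 196, 179, 137, 81, 69 and 39 bases before the start, and had a GC content of 76.8%. INHBA held none of the 3 motifs and had a GC content of 42.8%, below the median of 58.0% over all promoters. FST held 1 TGANTCA match 160 bases before the start and GC boxes at 96 and 65 bases. TGFBI held GC boxes at 98, 66 and 16 bases. Over 35116 promoter entries of the same length, 6.57% held TGANTCA, 13.6% held CAGACA and 42.6% held GGGCGG. A match is a description of the letters, and no binding was measured.

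Before the members were compared, the libraries were checked against their labels. Libraries held between 9657309 and 18039313 counts. SMARCA4 was at 189 to 232 CPM (the gene's reads relative to all reads of the library, with TMM scaling) in DMSO_siNT, 275 to 330 CPM in 4OHT_siNT and 70.4 to 141 CPM in 4OHT_siSMARCA4, and the knockdown group did not overlap either other group (log2 fold change against 4OHT_siNT -1.61, SE 0.14, edgeR adjusted p 1.3e-06). DMSO_siNT 4-2V, named by its siRNA number and its set, stood apart. Its ESR1 level, which reads the fusion, was 29.5 CPM against 1034 to 1316 CPM in the other 5 DMSO_siNT libraries, and its HRAS level was 436 CPM against 2165 to 2852 CPM. On these values its label as an ER:RAS library is in doubt. Set names carry the letters V or VM, whose meaning is not stated. All 6 4OHT_siNT libraries were VM, whereas DMSO_siNT had 3 of each and 4OHT_siSMARCA4 had 3 V, 2 VM and 1 library without a matching sample title, whose column name reads siSMARCA4_2 and 1VM (the untitled library). Results are therefore given also without DMSO_siNT 4-2V and in the VM libraries alone, which leave out the untitled library unless stated. The 8 fibroblast markers all passed the filter and summed to between 9210 and 22303 CPM, against 35.9 to 151 CPM for 6 epithelial (4 passed the filter), 4.30 to 14.9 CPM for 5 endothelial and 45.3 to 75.0 CPM for 6 immune markers.

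Levels can be compared between genes only per length, and the order of the members changed between growing and senescent cells. On the scale of CPM per kilobase of the MANE Select transcript, TGFBI was the most abundant member in all 3 groups, at 535 ± 168 in DMSO_siNT, 1353 ± 24.9 in 4OHT_siNT and 1047 ± 157 in 4OHT_siSMARCA4 (SD, n = 6). FST was the second most abundant in DMSO_siNT, at 81.6 ± 14.1 CPM per kilobase, and ranked sixth in 4OHT_siNT at 11.4 ± 1.53. INHBA went from the fourth place, at 52.3 ± 20.4, to the second, at 207 ± 20.2. In DMSO_siNT the ranges of neighbours from FST through TGFBR2, INHBA and TGFB1 to SMAD3 overlapped, so their order is not resolved, and TGFB1 and INHBA swapped places when the union of all exons was used as the length. In 4OHT_siNT the order TGFBI, INHBA, TGFB1, TGFBR2, SMAD3, FST, SMAD7, TGFBR1, TGFB2, TGFB3 was separated at every step except between FST and SMAD7. TGFB3 was lowest in every group, at 0.354, 0.372 and 0.254 CPM per kilobase.

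**Figure D1:**
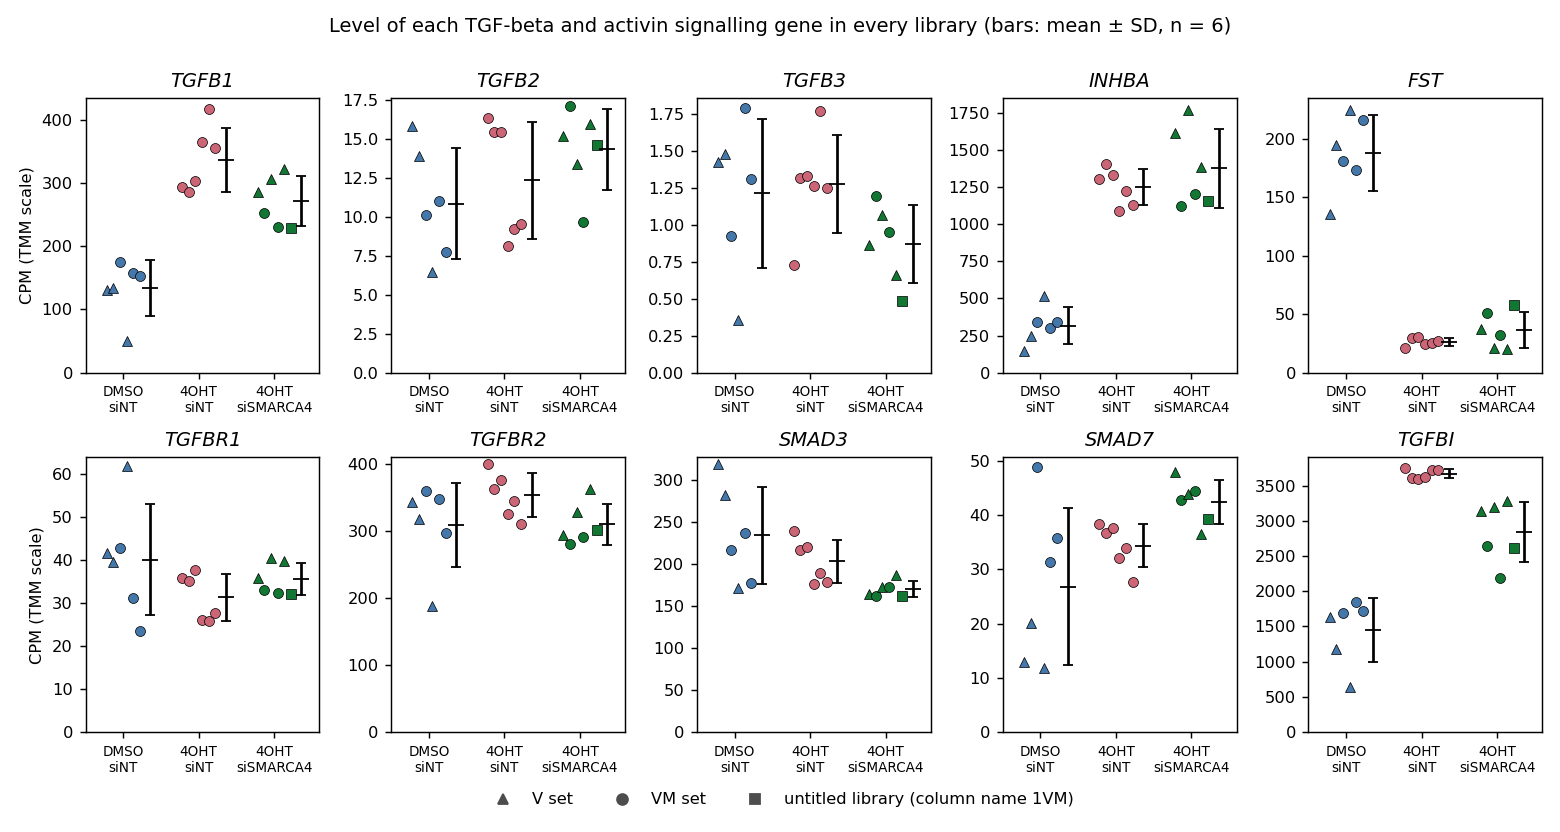
Level of each of the 10 genes in every library, in CPM on a linear axis. There is 1 point for each of the 6 libraries of DMSO_siNT, 4OHT_siNT and 4OHT_siSMARCA4, and a bar gives the group mean ± SD. TGFB1, INHBA and TGFBI sit higher and FST lower in all 12 senescent libraries than in all 6 growing ones, and the TGFB1 and TGFBR2 points of DMSO_siNT at 49.8 and 189 CPM lie below the rest of their group.

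The first question was how these genes differed between senescent and growing cells. TGFB1, INHBA and TGFBI were higher in senescent cells, FST was lower, and the other 6 genes did not pass the test. Thus 4 of the 10 genes passed at an adjusted p under 0.05, 3 higher and 1 lower, where 52.8% of all genes tested passed, 23.9% higher and 28.9% lower. The same 4 genes had no overlap between the 6 and 6 libraries, as did 33.8% of all genes tested. A share of 4 in 10 is near that background, so it is not a result particular to these genes. In bulk RNA, fewer cells with a transcript and less transcript per cell cannot be told apart. The summed epithelial markers were at 107 to 151 CPM in growing and 65.1 to 81.9 CPM in senescent cells, without overlap. KRT19 fell from a mean of 42.1 to 1.27 CPM, while KRT18 was at 63.2 and 61.0 CPM. KRT8 and CLDN4 also had lower means. EPCAM was at most 2.15 CPM and CDH1 had at most 2 reads in any of these libraries. The part of these markers in the results was not tested.

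TGFB1 encodes the main TGF-beta ligand of fibroblasts. It lies at chr19:41301587-41353922 (GENCODE 44, GRCh38, protein coding, minus strand). TGFB1 ranged from 49.8 through a median of 143 to 176 CPM in DMSO_siNT and from 286 through 329 to 417 CPM in 4OHT_siNT. All senescent libraries were above all growing ones, and the lowest growing library was DMSO_siNT 4-2V. The difference was 2.52-fold (log2 fold change 1.33, SE 0.21, adjusted p 2.5e-05), and remained in the VM libraries (log2 fold change 1.06, adjusted p 4.9e-06) and without DMSO_siNT 4-2V (1.17). TGFB1 shares 215 exon bases with HNRNPUL1 on the opposite strand, and whether counting used strand is not given in the sources used here.

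TGFB2 and TGFB3, the other two TGF-beta ligands, showed no difference that passed the test. TGFB2 (chr1:218345336-218444619) ranged over 6.45, 10.6 and 15.8 CPM (lowest, median, highest) in DMSO_siNT and 8.16, 12.5 and 16.4 CPM in 4OHT_siNT. The log2 difference was 0.18, with a 95% interval from -0.28 to 0.65. TGFB3 (chr14:75958097-75983011) was measured by only 3 to 26 reads per library, so its log2 difference of 0.04 had an interval from -0.56 to 0.65. As a share of the CPM per kilobase of the 3 ligands, TGFB1 made up 93.7% to 97.0% in DMSO_siNT and 97.2% to 98.7% in 4OHT_siNT, so TGFB1 transcripts dominated in both states and the ranges did not overlap.

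INHBA and FST, the activin subunit and its antagonist, moved in opposite directions. INHBA (chr7:41667168-41705834, minus strand) ranged over 147, 322 and 519 CPM in DMSO_siNT and 1091, 1267 and 1408 CPM in 4OHT_siNT. The highest growing library, DMSO_siNT 4-2V, was still below the lowest senescent one. INHBA was 3.96-fold higher (log2 fold change 1.98, SE 0.22, adjusted p 2.5e-07). FST (chr5:53480626-53487134, plus strand) ranged over 135, 188 and 225 CPM in DMSO_siNT and 20.9, 25.8 and 30.2 CPM in 4OHT_siNT, again with no overlap. It fell to 0.139 times its level in growing cells (log2 fold change -2.84, SE 0.23, adjusted p 4.0e-09), the largest change among the 10 genes. In the VM libraries the log2 fold changes were 1.93 for INHBA and -2.86 for FST. Without DMSO_siNT 4-2V they were 2.19 and -2.78.

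Put as a ratio within each library, INHBA per kilobase was 0.414 to 0.878 times FST in DMSO_siNT, with a median of 0.634, and 16.2 to 23.8 times FST in 4OHT_siNT, with a median of 17.5. Per kilobase, follistatin transcripts thus exceeded activin subunit transcripts in all 6 growing libraries, and the reverse held in all 6 senescent ones. Before division by length, INHBA had more reads than FST in every growing library. The order in growing cells therefore rests on the transcript lengths used, 6046 bases for INHBA and 2299 for FST. In 4OHT_siSMARCA4 the ratio was 7.59 to 31.6, a range that spans that of 4OHT_siNT. These ratios are of RNA, and protein was not measured.

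**Figure D2:**
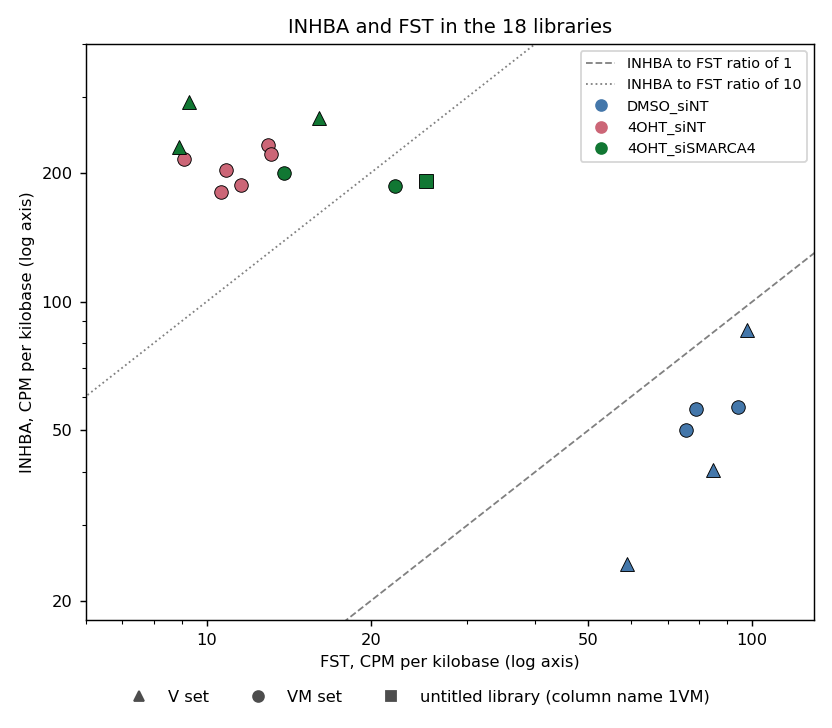
INHBA against FST in the 18 libraries, both in CPM per kilobase on log axes, coloured by group and shaped by the letters in the set name or as the untitled library, with lines at INHBA to FST ratios of 1 and 10. The 6 DMSO_siNT libraries lie below the line of 1, the 6 4OHT_siNT libraries lie above the line of 10, and 2 of the 6 4OHT_siSMARCA4 libraries lie between the lines.

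Neither receptor passed the test with all libraries. TGFBR1 passed as lower without DMSO_siNT 4-3VM (log2 difference -0.46, adjusted p 0.0175). It did not pass without DMSO_siNT 4-2V (-0.18, adjusted p 0.276) or in the VM libraries (-0.05, adjusted p 0.821). TGFBR2, the type II receptor that binds TGF-beta (chr3:30606601-30694142), ranged over 189, 330 and 360 CPM in DMSO_siNT and 310, 353 and 399 CPM in 4OHT_siNT, and its log2 difference of 0.19 had an interval from -0.08 to 0.46. TGFBR1, the type I kinase (chr9:99104038-99154192), ranged over 23.4, 40.6 and 61.9 CPM in growing and 25.8, 31.4 and 37.5 CPM in senescent cells, with a log2 difference of -0.35 and an interval from -0.72 to 0.01 (adjusted p 0.0962). Both growing extremes, the low TGFBR2 and the high TGFBR1, came from DMSO_siNT 4-2V. Per kilobase, TGFBR2 exceeded TGFBR1 in every library, by 4.37 to 18.1 times in growing and 14.3 to 19.2 times in senescent cells.

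SMAD3, which carries the signal to the nucleus (chr15:67063763-67195173), was at 172, 227 and 319 CPM in DMSO_siNT and 176, 203 and 238 CPM in 4OHT_siNT. Its log2 difference of -0.20 had an interval from -0.49 to 0.08. SMAD7, the inhibitory SMAD (chr18:48919853-48950965), was at 11.8, 25.7 and 48.8 CPM in growing and 27.7, 35.3 and 38.3 CPM in senescent cells, with a log2 difference of 0.36 and an interval from -0.17 to 0.88. SMAD7 in growing cells split by set: the 3 V libraries read 11.8, 12.9 and 20.1 CPM and the 3 VM libraries 31.3, 35.8 and 48.8 CPM. Against the VM libraries alone the SMAD7 difference was -0.17 (adjusted p 0.309).

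TGFBI, a secreted matrix protein named for its induction by TGF-beta (chr5:136028988-136063818), ranged over 646, 1658 and 1850 CPM in DMSO_siNT and 3588, 3673 and 3747 CPM in 4OHT_siNT. The 6 senescent libraries lay within a narrow band above every growing library. TGFBI was 2.53-fold higher (log2 fold change 1.34, SE 0.19, adjusted p 7.6e-06). The lowest growing value was again DMSO_siNT 4-2V, and the log2 fold change was 1.19 without it and 1.07 in the VM libraries. In those 2 fits the same 4 genes passed, where 58.3% of all genes passed without DMSO_siNT 4-2V and 53.5% in the VM libraries.

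Next, the effect of SMARCA4 knockdown in senescent cells was examined. None of the 10 genes passed the test between 4OHT_siSMARCA4 and 4OHT_siNT with edgeR, and none with DESeq2, while 1 gene, FST, had an unadjusted p under 0.05. Over all genes tested, 10.6% passed and 24.7% had an unadjusted p under 0.05. The median log2 difference of the 10 genes was -0.02, against 0.01 for all genes tested.

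TGFBI was the 1 gene of the 10 whose groups did not overlap, as in 11.4% of all genes tested. It ranged over 2195, 2888 and 3274 CPM in 4OHT_siSMARCA4, all below the 3588 CPM of the lowest 4OHT_siNT library, and its log2 difference was -0.37 (95% interval -0.76 to 0.02, adjusted p 0.228). The 3 V libraries with knockdown read 3134, 3192 and 3274 CPM, the 2 VM libraries 2195 and 2642 CPM, and the untitled library 2608 CPM. TGFB1 was also highest in the V libraries, with 285, 306 and 322 CPM, against 231 and 253 CPM in the VM libraries and 228 CPM in the untitled one, and its log2 difference was -0.31 (-0.74 to 0.12). INHBA ranged over 1127, 1298 and 1775 CPM with a log2 difference of 0.14 (-0.29 to 0.58), with libraries that overlapped the senescent controls. INHBA was 1390 to 1775 CPM in the V libraries and 1127 and 1205 CPM in the VM ones.

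FST ranged over 20.5, 34.4 and 58.1 CPM with knockdown and had a log2 difference of 0.49 (0.03 to 0.94, p 0.0364, adjusted p 0.168). With siSMARCA4_2, FST read 36.9 CPM in the V library, more in the VM library and 58.1 CPM in the untitled one. With siSMARCA4_4 it read 20.5 and 21.4 CPM in the V libraries and 31.9 CPM in the VM library. FST was thus higher with siSMARCA4_2 and, within each siRNA, higher in VM libraries, and siSMARCA4_4 had more of the V libraries. The highest of these, 58.1 CPM, was still below the 135 CPM of the lowest growing library. The ligands TGFB2 (log2 difference 0.21) and TGFB3 (-0.54), the receptors TGFBR1 (0.18) and TGFBR2 (-0.19), and SMAD3 (-0.26) and SMAD7 (0.30) all had 95% intervals that included 0. Of these the interval of TGFB3 was widest, from -1.17 to 0.08, and that of TGFBR2 narrowest, from -0.46 to 0.08.

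The knockdown comparison depended on the libraries used. In the VM libraries, where 2 knockdown libraries were compared with 6, 3 of the 10 genes passed and 21% of all genes did. TGFBI was lower (log2 fold change -0.62, adjusted p 0.00089), TGFB1 was lower (-0.49, adjusted p 0.0245) and FST was higher (0.65, adjusted p 0.0128). With the untitled library added as a VM library, 5 of the 10 passed, these 3 and TGFBR2 (-0.29, adjusted p 0.0236) and SMAD3 (-0.31, adjusted p 0.0407), where 30.4% of all genes did. Without DMSO_siNT 4-2V, which is in neither group but enters the shared estimate of spread, 24.6% of all genes passed. Then TGFB1 (-0.32, adjusted p 0.0439) and TGFBI (-0.38, adjusted p 0.0160) passed, at nearly the same log2 fold changes as with all libraries, and FST did not (0.47, adjusted p 0.0984). The summed epithelial markers were 65.1 to 81.9 CPM in 4OHT_siNT and 35.9 to 58.2 CPM with knockdown, without overlap. KRT18 went from a mean of 61.0 to 42.8 CPM, and 1 of the 4 epithelial markers tested passed, as lower. The part of these markers in the knockdown results was not tested either.

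**Figure D3:**
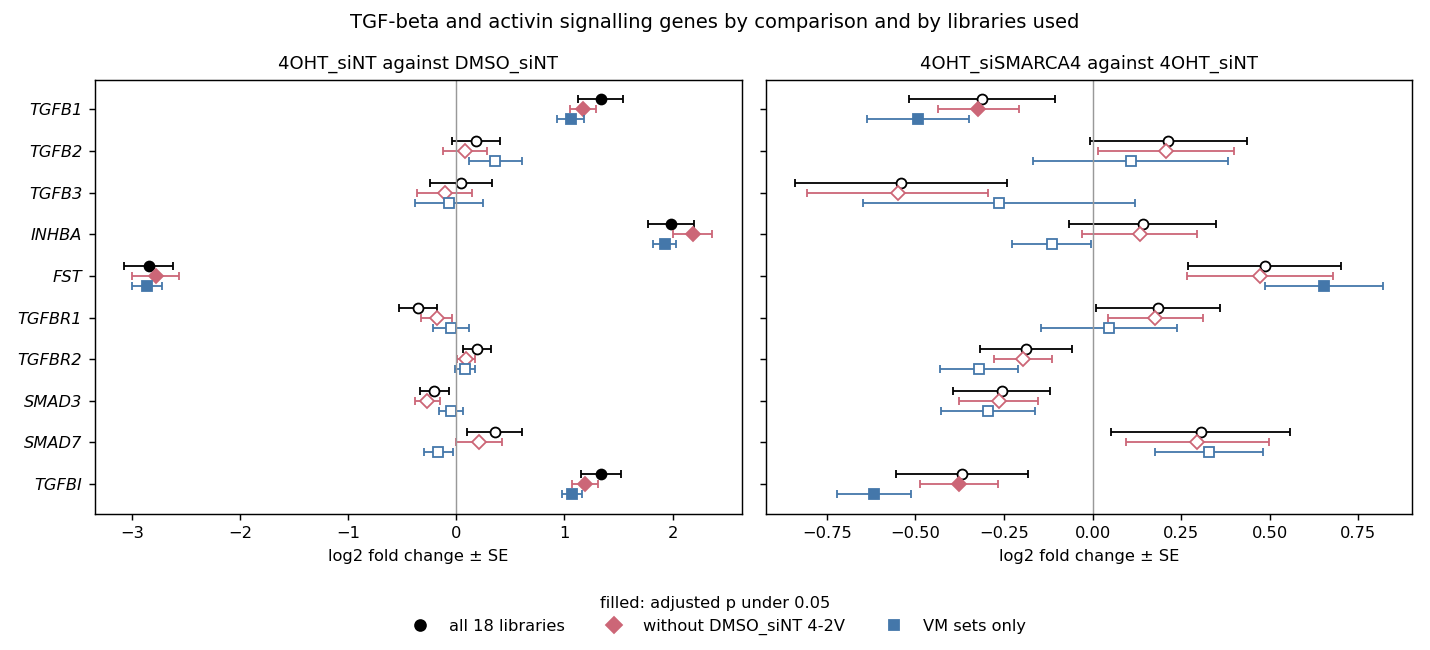
Log2 fold change ± SE of the 10 genes from edgeR, for 4OHT_siNT against DMSO_siNT on the left and 4OHT_siSMARCA4 against 4OHT_siNT on the right, with all 18 libraries, without DMSO_siNT 4-2V, and in VM libraries only. Filled symbols passed at an adjusted p under 0.05. On the left the same 4 genes are filled in each fit, and on the right TGFBI and TGFB1 are filled in both smaller fits and FST in the VM libraries only.

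Set beside the growing cells, the knockdown cells differed in the same direction as the senescent controls for the 4 genes above. This comparison shares its libraries with the other comparisons, so its values are only placed side by side. The log2 fold change was 1.02 for TGFB1 (adjusted p 0.00038), 2.13 for INHBA (9.3e-08), -2.36 for FST (3.5e-08) and 0.97 for TGFBI (0.00024), and none of these overlapped DMSO_siNT, which held for 29.6% of all genes. In addition SMAD3 was lower (-0.46, adjusted p 0.0084) and SMAD7 higher (0.66, adjusted p 0.036), with overlapping libraries, making 6 of 10 where 50.5% of all genes passed. In the VM libraries neither SMAD3 (-0.34, adjusted p 0.0712) nor SMAD7 (0.16, adjusted p 0.485) passed. The SMAD7 call was lost in 10 of 15 alternatives and in 6 of 18 fits that left out 1 library, and that of SMAD3 in 5 alternatives.

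The siRNAs of an arm were then compared with each other. No gene of the 10 passed with edgeR between siNT 2 and siNT 4 in 4OHT_siNT, where 0.0732% of all genes did and 1 of the 10 had an unadjusted p under 0.05, as did 10.6% of all genes. In DMSO_siNT the share of all genes was 0.0512%, and 3 of the 10 and 28.3% of all genes had an unadjusted p under 0.05. Between siSMARCA4_2 and siSMARCA4_4 the share was 0.00732%, and 1 of the 10 and 6.43% of all genes were below an unadjusted p of 0.05. TGFB2 in senescent controls read 15.4 to 16.4 CPM with siNT 2 and 8.16 to 9.53 CPM with siNT 4, without overlap (log2 difference 0.81, adjusted p 0.154). TGFBR1 also split there, at 35.1 to 37.5 CPM against 25.8 to 27.7 CPM, as did SMAD3 at 216 to 238 CPM against 176 to 190 CPM. TGFB1, INHBA, TGFBR2 and SMAD7 did not overlap there either, while TGFB3, FST and TGFBI did. The share of all genes that split in this way was not counted, so these splits are not read as a result about these genes. For TGFB2, TGFBR1 and SMAD3 the log2 difference between the control siRNAs was larger in size than the knockdown difference given above. So it was for TGFB1 (-0.37), INHBA (0.23) and TGFBR2 (0.21), but not for SMAD7, TGFB3, FST or TGFBI.

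FST was at 48.7 ± 10.8 CPM with siSMARCA4_2 and 24.6 ± 6.36 CPM with siSMARCA4_4 (SD, n = 3), a log2 difference of 1.00 (adjusted p 0.216). Against all siNT libraries, FST was higher with siSMARCA4_2 alone (0.89, adjusted p 0.0040) and had a value of -0.09 (adjusted p 0.896) with siSMARCA4_4 alone. The test of the difference itself, of the knockdown effect between the siRNA numbers, gave 0.92 for FST (adjusted p 0.409). It passed for none of the 10 genes and for 0.0146% of all genes with edgeR, and 1 of the 10, FST, had an unadjusted p under 0.05, as did 7.28% of all genes. DESeq2 called none of the 10. Between siRNAs within a group, DESeq2 called TGFB2 in senescent controls (0.79, adjusted p 0.0283), TGFB2 (0.64, adjusted p 0.0380) and SMAD3 (0.47, adjusted p 0.0160) in growing cells and FST in knockdown cells (0.99, adjusted p 0.0087). DESeq2 called 207, 1782 and 47 of 22201 genes in these 3 contrasts.

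The V and VM libraries were compared within a group in the same way. In DMSO_siNT, SMAD7 was lower in V than in VM libraries (log2 difference -1.38, adjusted p 0.0118), the only gene of the 10 to pass, where 0.324% of all genes did. In 4OHT_siSMARCA4 none passed with edgeR or DESeq2, against 0.101% of all genes, and 1 of the 10, FST (log2 difference -0.67, adjusted p 0.508), had an unadjusted p under 0.05, as did 8.15% of all genes. SMAD7 there read 42.8 ± 5.87 CPM in 3 V libraries and 42.8 and 44.5 CPM in 2 VM libraries. The difference between the V and VM effects of 4OHT_siSMARCA4 against DMSO_siNT was 1.35 for SMAD7 (adjusted p 0.133). It passed for none of the 10 genes and 0.0864% of all genes with edgeR. An unadjusted p below 0.05 was found for 3 of the 10 and 9.63% of all genes. DESeq2 called SMAD7 (1.34, adjusted p 0.0070) among 130 of 22107 genes. Per kilobase, SMAD7 was 0.0783 to 0.436 times SMAD3 in DMSO_siNT, 0.301 to 0.353 times in 4OHT_siNT and 0.377 to 0.568 times in 4OHT_siSMARCA4, so the widest range was in growing cells.

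To place the 10 genes in their pathway, 7 lists with 82 other genes were read from the same fit, and 71 of these were tested. Between senescent and growing cells, 24 were higher, 25 lower and 22 did not pass, with a median log2 difference of 0.02 against -0.05 for all genes. Counts and medians are given as descriptions of each list, with no test of the list.

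Among other ligands, only GDF11 and GDF15 of 8 passed the filter, and both were higher. GDF15, a stress-induced distant relative of the TGF-beta ligands, rose from 55.2 to 117 CPM in growing cells to 1391 to 1706 CPM (log2 fold change 4.17), and GDF11 by 0.51. Among genes for latency, release and processing of the ligands, 4 of 11 were higher and 3 lower. NRROS and LRRC32, which tether latent TGF-beta to the cell surface, were higher by 2.56 and 1.38 on the log2 scale. THBS1, an activator of latent TGF-beta, and LTBP4, a latent TGF-beta binding protein, were lower, at -1.48 and -0.93. The other called genes of that list, named after their values were seen, were FURIN (0.84) and BMP1 (0.54), proteases, and the binding protein LTBP1 (-0.75). BMP1 did not pass in the VM libraries (0.31, adjusted p 0.061) and LTBP4 was at -0.48 there.

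Among inhibitors outside the cell or at the receptor, 3 of 5 tested genes were lower and none was higher. DCN, a proteoglycan that binds TGF-beta, was at 491 to 894 CPM in growing and 14.9 to 18.7 CPM in senescent cells (log2 fold change -5.17). TGFBR3, a co-receptor whose shed form traps ligand, fell by 1.42 and FSTL3, a relative of follistatin that binds activin, fell by 0.87 on the log2 scale. With FST, DCN and FSTL3 made up antagonists of both the TGF-beta and the activin ligands. RNA of TGFBR3 does not separate the co-receptor from its shed form. Among other receptors, ACVRL1, a type I receptor for BMP9, was higher (2.15), as were the activin receptors ACVR1B (0.96) and ACVR2B (0.83), and none of 5 was lower. Of 12 tested SMADs and SMAD regulators, 5 were higher and 4 lower. The feedback genes PMEPA1 (1.79) and SKIL (1.16) and the co-repressor TGIF1 (0.94) were higher, and SMAD6, the inhibitory SMAD of the BMP branch, was lower (-1.77). Named after their values were seen, SMURF1 (0.85) and USP15 (0.47) were also higher and SMAD2 (-0.23), SMAD4 (-0.92) and TGIF2 (-0.59) lower.

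Of 20 known targets of TGF-beta in fibroblasts, 8 were higher, 7 lower and 5 did not pass, with a median log2 difference of -0.09. Among VM libraries 7 were higher and 10 lower with a median of -0.44, and without DMSO_siNT 4-2V 8 were higher and 9 lower. BHLHE40 (2.80), a transcription factor, and SPHK1 (2.72), a lipid kinase, were higher. TAGLN (-3.14), a smooth muscle actin-binding protein, and ELN (-5.61, SE 0.84), elastin, were lower, ELN with only 1 to 7 reads in each 4OHT_siNT library. Named after their values were seen, the contractile genes ACTA2 (-1.41) and CNN1 (-2.61) fell with TAGLN. TGFBI and its fellow targets thus did not move as 1 block. In the BMP branch, 2 of 16 genes were higher and 8 lower. BMP2 was the most changed, from 4.36 to 7.64 CPM in growing cells to 481 to 669 CPM (log2 fold change 6.42), while ID2 (-3.73) and ID3 (-1.92), targets of BMP signalling, and SMAD9 (-3.24), a BMP-activated SMAD, were lower. SMAD1 (1.48), named after its value was seen, was the other higher gene.

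With SMARCA4 knockdown, 4 of the 71 pathway genes were higher, 10 lower and 57 did not pass, and the median log2 difference was -0.06. The target list held 5 of the 10 lower genes and no higher one: COL1A2 (-1.46, adjusted p 0.00062), COL1A1 (-1.42, adjusted p 0.0025), FN1 (-1.04, adjusted p 0.032) and COL3A1 (-1.01, adjusted p 0.031), which encode fibrillar collagens and fibronectin, and the matrix protein POSTN (-0.93, adjusted p 0.0052), named after its value was seen. Its median was -0.38. In the VM libraries 2 genes of this list were higher and 8 lower. Without DMSO_siNT 4-2V, 2 were higher and 5 lower. Of 13136 genes tested with all libraries, 655 were higher and 742 lower. Other targets that did not pass are named here after their values were seen. They included the matrix genes COL4A1 (-0.39) and ELN (0.16) and the contractile genes ACTA2 (-0.42) and TAGLN (-0.46). They also included SPHK1, at a mean of 169 CPM in 4OHT_siNT and 247 CPM with knockdown, and CNN1, at 11.4 and 15.1 CPM. FN1 was at -1.68 in the VM libraries.

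LRRC32 was lower with knockdown (-1.60, adjusted p 0.0086), from 54.2 to 69.5 CPM to 8.37 to 42.1 CPM without overlap, and so was BMP1 (-0.54, adjusted p 0.032), which cleaves procollagens. Among the inhibitors, TGFBR3 (0.86, adjusted p 0.0070) and FSTL3 (0.60, adjusted p 0.0248) were higher and DCN was lower (-0.66, adjusted p 0.0242). Among the receptors, ACVR2A was higher (0.57, adjusted p 0.022) and ACVRL1 lower (-0.47, adjusted p 0.038). GDF11 was lower (-0.72, adjusted p 0.00066) and BMP6, a BMP ligand, higher (1.73, adjusted p 0.0068). No gene of the SMAD list passed. ACVR2A did not pass in the VM libraries (0.39, adjusted p 0.170), where LRRC32 was at -2.85. In the VM libraries 9 pathway genes were higher and 22 lower, and without DMSO_siNT 4-2V 10 were higher and 18 lower.

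**Figure D4:**
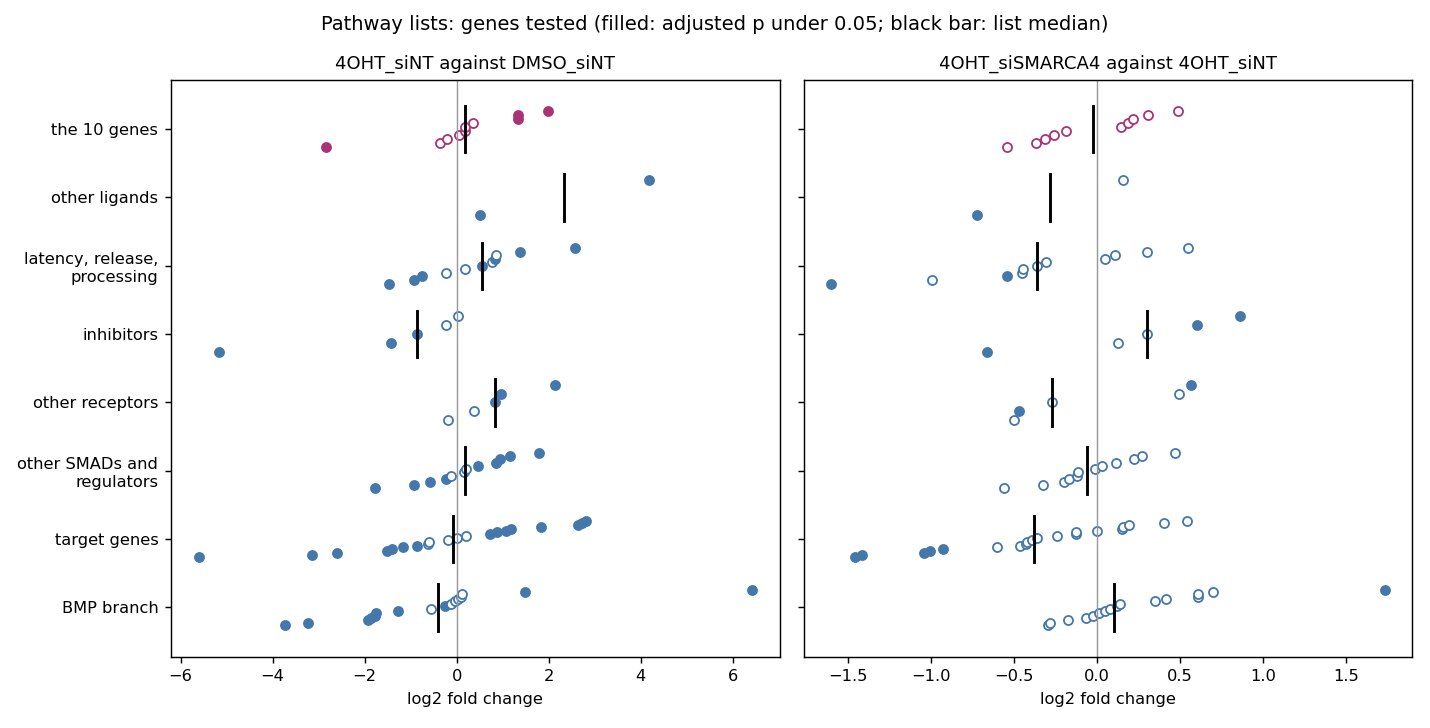
Log2 fold change of each tested gene, for the 10 genes and for each of the 7 pathway lists. The comparisons are 4OHT_siNT against DMSO_siNT and 4OHT_siSMARCA4 against 4OHT_siNT, from the fit with all 18 libraries. Points are genes, filled where the adjusted p was under 0.05, and a black bar marks the median of each list. In the first comparison 3 of the 5 inhibitor genes passed as lower and 0 as higher. In the second, 5 of the 20 target genes passed as lower and 0 as higher.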

How the data were processed

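The authors prepared poly(A)-selected, strand-specific libraries, sequenced single ends on a NextSeq 2000, and deposited raw read counts per gene and lane. The submitters' processing notes name STAR 2.7.8a, DESeq2 1.36.0 and hg38. The counting program, annotation and use of strand are not given in the sources used here. Each of the 18 libraries was the sum of 2 lanes (36 columns). The labels list 29 samples, of which 17 matched a column by name, and the rest were not analysed here. One library, whose column name gives siSMARCA4_2 and 1VM but matches no title, was kept by its group.

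Genes were filtered with filterByExpr (minimum count 10), scaled by TMM and tested with the edgeR 4.0.16 quasi-likelihood test in R 4.3.3, with 3 groups in 1 fit and Benjamini-Hochberg adjustment over 13136 genes. SE was derived from the F statistic. The biological coefficient of variation was 23.3%. The intervals hold this spread between libraries and also counting error, which weighs most on genes with few reads such as TGFB3. DESeq2 1.42.0 was an alternative. The script was tested on simulated data. Within a group, all 45 pairs of libraries differed by more than sampling noise (chi-square per degree of freedom 2.33 to 315). Gene positions and lengths came from GENCODE 44.

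The 10 genes, the lists and the alternatives were chosen with earlier results of these data known. Of each list, up to 4 called genes with the largest change per comparison were named, and others are marked where they appear.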

Additional observations from a re-analysis of the deposited data

Results flagged for a closer look

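A value that stood apart from the other 5 of its group was found for 2 genes, both in DMSO_siNT 4-2V. TGFB1 was 49.8 CPM there against 131 to 176 CPM in the other 5 libraries, a gap of 0.768 of the group's range and beyond Dixon's 95% critical value for 6 values. TGFBR2 was 189 CPM against 297 to 360 CPM, a gap of 0.703 of the range. Of 30 sets of 6 values (10 genes in 3 groups), these 2 stood apart, where chance gives about 1.5. The same library had low ESR1 and HRAS levels, and whether these go with the TGFB1 and TGFBR2 values was not tested. Without it the DMSO_siNT mean of TGFB1 was 150 ± 18.4 CPM (SD, n = 5) in place of 133 ± 44.1 CPM (n = 6).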

How the results depend on the processing

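Between senescent and growing cells the same 4 genes passed in the VM libraries and without DMSO_siNT 4-2V, and the count was 4 in every alternative and 4 to 5 when 1 library was left out. The added gene was TGFBR1 (-0.46, adjusted p 0.0175) without DMSO_siNT 4-3VM and SMAD7 (0.61, adjusted p 0.0298) without DMSO_siNT 2-2VM. The changes of direction concerned genes that had not passed. For TGFB3 in this comparison the value was -0.021 with library totals, -0.065 in VM libraries, -0.067 with the untitled library added and -0.17 against siNT 2 alone, and -0.11 to 0.19 over libraries left out. SMAD7 was -0.17 in both VM fits. With knockdown, INHBA was -0.045 with the set as a block and -0.12 in both VM fits, TGFBR1 was -0.027 with the block and -0.028 against siNT 2 alone, TGFB2 was -0.14 against siNT 2 alone, and FST was -0.095 with siSMARCA4_4 alone. TGFBR2 between knockdown and growing cells was -0.023 with library totals, -0.026 with at least 10 counts in every library (a filter that left TGFB3 untested), -0.24 in VM libraries and -0.22 with the untitled one, -0.00115 with 2 groups in the fit, -0.13 with siNT 2 alone, -0.073 with siSMARCA4_2 alone, and -0.11 to 0.047 over libraries left out.

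For knockdown, the count of 0 of the 10 genes became 3 in VM libraries, 5 with the untitled library added, 4 with only those 2 groups in the fit, 2 against siNT 2 alone, 1 with siSMARCA4_2 alone and 0 to 2 with 1 library left out, the 2 being without DMSO_siNT 4-2V. The 14 pathway genes became 31, 39 and 33 in the first 3 of these, 6 against siNT 4 alone, 5 with siSMARCA4_4 alone, 6 over 2-fold, 7 at an adjusted p under 0.01 and 9 to 28 with 1 library left out. Over all genes the 1397 calls became 2858 in VM libraries, 4064 with the untitled one and 3405 with 2 groups. They became 2109 and 543 against siNT 2 and siNT 4 alone, and 1174 and 254 with siSMARCA4_2 and siSMARCA4_4 alone. Without DMSO_siNT 4-2V there were 3269, and the cause was not tested. Over 2-fold, the 49 pathway genes between senescent and growing cells became 31 (46 to 54 with 1 library left out), and the 6 of 10 genes between knockdown and growing cells became 3 (5 to 7). Between siRNAs, DESeq2 called 1 gene in senescent controls, 2 in growing and 1 in knockdown cells. These were among 207, 1782 and 47 of 22201 genes, in place of 10, 7 and 1 of 13659 with edgeR. Leaving out DMSO_siNT 4-2V gave 2 in senescent controls, TGFB2 (0.81, adjusted p 0.0236) and TGFBR1 (0.45, adjusted p 0.0327), and 1 in knockdown cells, FST (0.99, adjusted p 0.0325). Between V and VM, leaving out that library gave 2 in growing cells, and the difference of effects gave 1 with it left out and 1 with DESeq2. For these contrasts the calls over all genes without DMSO_siNT 4-2V are not given, so no share stands beside those counts.

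No pairing of libraries by set name was seen. Deviations of libraries with the same set correlated at -0.286 to 0.299 over 15 pairs, and those of other libraries at -0.298 to 0.290 over 93 pairs. So few pairs cannot exclude a pairing. With the set as a replicate block, 4, 0 and 4 of the 10 genes passed between senescent and growing, knockdown and senescent, and knockdown and growing cells, and 1 pathway gene passed with knockdown. Over all genes the counts were 4356, 236 and 4672 in place of 6935, 1397 and 6635.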
